A study of Mus musculus with 12 samples.

Results

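The genes described here are the canonical Notch ligands Dll1, Dll3, Dll4, Jag1 and Jag2, the receptors Notch1, Notch2, Notch3 and Notch4, and Neurl1a, a ubiquitin ligase that acts on the ligands. They are 10 of the 45706 genes in the count table. They were chosen by name as parts of the pathway, and each symbol matched 1 Ensembl identifier.

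RNA-seq was performed on 12 libraries of mouse cells, 3 for each of 4 groups, all derived from embryonic stem cells of C57BL/6 strain by the labels and carrying a GFP reporter knocked into 1 copy of Sox1. NPC are neural progenitor cells with no Sox1 induction, given in the labels as baseline glial progenitors and as not sorted, although the study's text describes sorting for the comparison with NPC(+). NPC(+) are Sox1-positive NPCs, in which the transcriptional activator dCas9-VP64 was targeted to the promoter of the endogenous Sox1 gene by gRNAs, and they were sorted. NSC are early neural stem cells after a week of neural induction and were not sorted, and NR are neural rosette cells sorted for the reporter. The dCas9-VP64 lines were grown from single cells and kept under blasticidin, and the study reports replicates from different days and clonal lines. Which line gave each library, and whether the NPC libraries carried dCas9-VP64 and gRNAs, is not stated in the sources used here. By the labels, the sort and the induction cannot be told apart between NPC(+) and NPC.

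Notch receptors are activated by ligands on neighbouring cells. Endocytosis of the bound ligand, which ubiquitin ligases of the Mind bomb and Neuralized families promote, exposes the receptor to cleavage, and the freed intracellular domain joins RBPJ on DNA and switches on genes such as those of the Hes and Hey families. In the developing nervous system the pathway is known for keeping progenitors undifferentiated while cells that start to differentiate display Delta-like ligands.

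Libraries differed in depth. Total counts ran from 4939268 to 18351483 in NPC, from 3407066 to 6315574 in NPC(+), from 29046205 to 43095688 in NSC and from 16707006 to 34594885 in NR. Values are given as CPM, the count of a gene for each 1000000 counts of its library, with totals corrected for composition by TMM. At these depths 3 counts correspond to between 0.0696 CPM in NSC replicate 1 and 0.881 CPM in NPC(+) replicate 1, a floor that covers counting error only.

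Sox1, the targeted gene, was measured first to check the labels. Its level was 4.83, 6.00 and 5.43 CPM in the NPC replicates, 20.3, 20.9 and 21.7 in NPC(+), 48.6, 65.0 and 51.8 in NSC, with 4.62, 20.0 and 19.2 in NR. Every NPC(+) and NSC library lay above every NPC library, whereas NR replicate 1 lay below every NPC library although NR was sorted for the Sox1 reporter. The difference of Sox1 between NPC(+) and NPC was a log2 fold change of 1.97 (0.43 as standard error, SE, with n = 3 in each group), and its adjusted p was 0.00221 by edgeR's quasi-likelihood test (Benjamini-Hochberg).

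The marker genes of other cell types also set libraries apart. All 6 pluripotency markers (Pou5f1, Nanog, Zfp42, Dppa5a, Esrrb and Fgf4) were higher in NR than in NSC and higher in both than in NPC. Their summed level was 2613, 1384 and 1982 CPM in the NR replicates and 138, 45.4 and 123 in NSC, against 6.62, 7.53 and 6.47 in NPC and 8.40, 7.07 and 9.17 in NPC(+). Dppa5a, the most abundant of them, reached 813 to 1612 CPM in NR. NR replicate 1 thus held the highest sum of pluripotency markers and the lowest Sox1 of its group, and these values go against a label of rosette cells alone. Members are therefore given with and without that library where it changes a call, and the part of these transcripts in the differences of NR and NSC was not tested.

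Markers of blood vessels were examined because Dll4 and Notch4 are known from endothelial cells. The 10 endothelial markers summed to 2.51, 2.65 and 1.04 CPM in NPC, 5.21, 5.03 and 3.00 in NPC(+), 15.0, 9.43 and 14.6 in NSC, with 146, 81.0 and 106 in NR. Pecam1, which pluripotent cells also express, made up most of the NR sums. Of these markers Cdh5, Tie1 and Erg, named after their values were seen, had no count in any NPC or NPC(+) library and at most 42 counts in an NR library. The other endothelial markers had counts in both NPC and NPC(+), up to 17 in a library for Pecam1. All of those but Emcn had a higher mean in NPC(+) than in NPC, such as Tek (0.371 CPM in NPC, 0.831 in NPC(+)) and Esam (0.395 and 0.990). Markers of pericytes and smooth muscle summed to 173, 892 and 172 CPM in NSC and 317, 732 and 239 in NR, mostly Acta2, against at most 4.40 in any NPC or NPC(+) library.

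Other lists described neural cells. Neural progenitor markers, with the glutamate transporter gene Slc1a3 at 2468 to 2774 CPM in NPC and at most 54.0 in NSC and NR, summed to 4575 to 4907 CPM in NPC, 2734 to 2824 in NPC(+), 2230 to 2487 in NSC, with 864 to 1512 in NR. Without Slc1a3 the sums of NPC lay under those of NSC, and Nes, Pax6 and Vim were higher in NSC than in NPC while Fabp7, Slc1a3 and Sox2 were lower. In NPC(+) against NPC, Nes was higher and 5 of the 7 were lower (Fabp7, Pax6, Slc1a3, Sox2 and Sox9), with a median log2 fold change of -1.10. In NR against NPC, Nes was higher and the 6 others lower, with a median of -0.77. Oligodendrocyte precursor markers, which in NPC and NPC(+) were nearly all Olig1 and Olig2, summed to 2401 to 2530 CPM in NPC and 1625 to 1758 in NPC(+), and to at most 51.5 in NSC and NR. Neuron markers, of which Map2 made up most in NPC and NPC(+) but not in NSC and NR, summed to 481 to 509 CPM in NPC, 427 to 442 in NPC(+), 604 to 759 in NSC, with 339 to 514 in NR. Against NPC, 6 of the 8 were higher and Map2 lower in both NSC and NR, with median log2 fold changes of 4.75 and 3.97 over the list. Astrocyte markers, of which S100b was highest on average, reached at most 29.9 CPM in any library, and presomitic mesoderm markers, mostly T, reached 23.4 to 81.4 CPM in NR and at most 3.87 elsewhere.

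**Figure D1:**
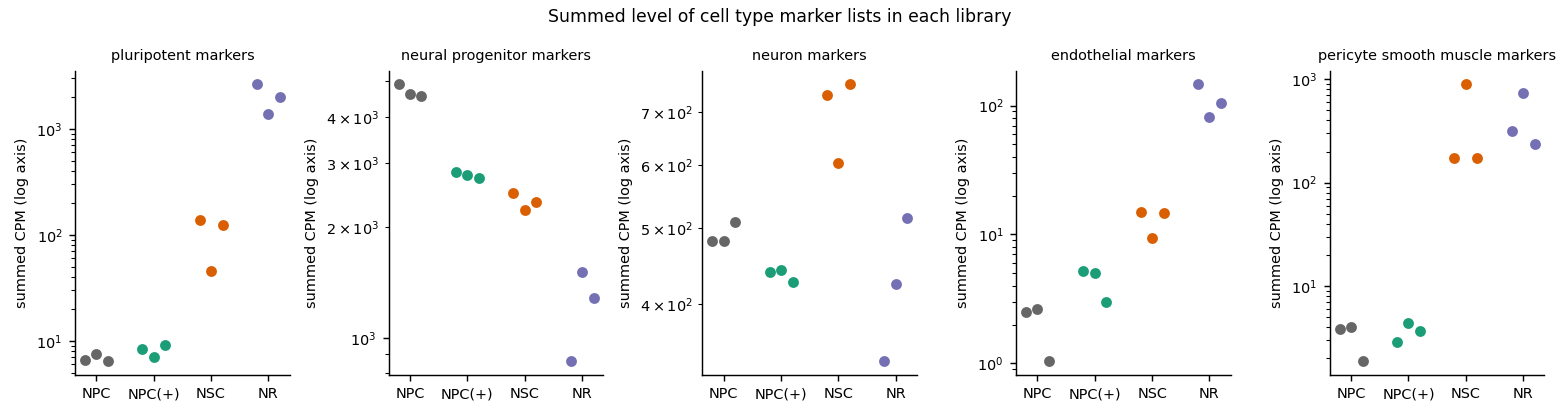
Summed CPM (log axis) of 5 marker lists in each of the 12 libraries, with 1 point per library and 3 points per group. Pluripotency markers sum to 1384 to 2613 CPM in NR, above every other library, and NR replicate 1 has the highest sum.

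All 10 members passed the filter on low counts and were tested among 17003 genes. A gene passed at an adjusted p under 0.1 and a p under 0.05, and p-values measure the spread between these samples. In NPC(+) against NPC, 3 of the 10 members were higher (Dll4, Notch4 and Neurl1a) and 4 were lower (Dll1, Jag1, Notch1 and Notch2), beside 21.6% of all tested genes higher and 22.7% lower. The share of higher members was near this background, the more so as the call of Notch4 was lost in several alternatives, and the share of lower members was above it. The median log2 fold change of the members was -0.31, against 0.00 over all tested genes. Dll3, Jag2 and Notch3 did not pass.

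Against the same NPC libraries, the other groups moved more members. In NSC 7 members were higher (Dll1, Dll3, Dll4, Jag2, Notch3, Notch4 and Neurl1a) and 3 lower (Jag1, Notch1 and Notch2), where 42.7% of all tested genes were higher and 32.5% lower. In NR 5 were higher (Dll3, Dll4, Jag2, Notch4 and Neurl1a) and 3 lower (Jag1, Notch1 and Notch2), where 44.2% of all tested genes were higher and 32.8% lower, so that the members' share was above the background for the higher genes in NSC and near it in the other directions. Median log2 fold changes were 1.55 in NSC and 0.78 in NR for the members, against 0.20 and 0.19 over all tested genes. These 3 comparisons share the NPC libraries and are not independent of each other.

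Among the groups other than NPC, 2 members were higher in NR than in NSC (Jag2 and Neurl1a) and 7 lower (Dll1, Dll3, Dll4, Jag1, Notch1, Notch2 and Notch3), beside 29.5% and 25.8% of all tested genes. NPC(+) exceeded NSC in 3 members (Dll4, Notch1 and Neurl1a) and lay under it in 6 (Dll1, Dll3, Jag2, Notch2, Notch3 and Notch4), beside 30% of all tested genes higher and 39.9% lower. Compared with NR, NPC(+) was higher in 3 members (Dll4, Jag1 and Notch1) and lower in 6 (Dll1, Dll3, Jag2, Notch3, Notch4 and Neurl1a), beside 30.8% and 42.9% of all tested genes. The members' share was well above the background for the lower genes in NR against NSC, above it for the lower genes of the NPC(+) comparisons, under it for the higher genes in NR against NSC, and at the background for the higher genes of NPC(+).

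**Figure D2:**
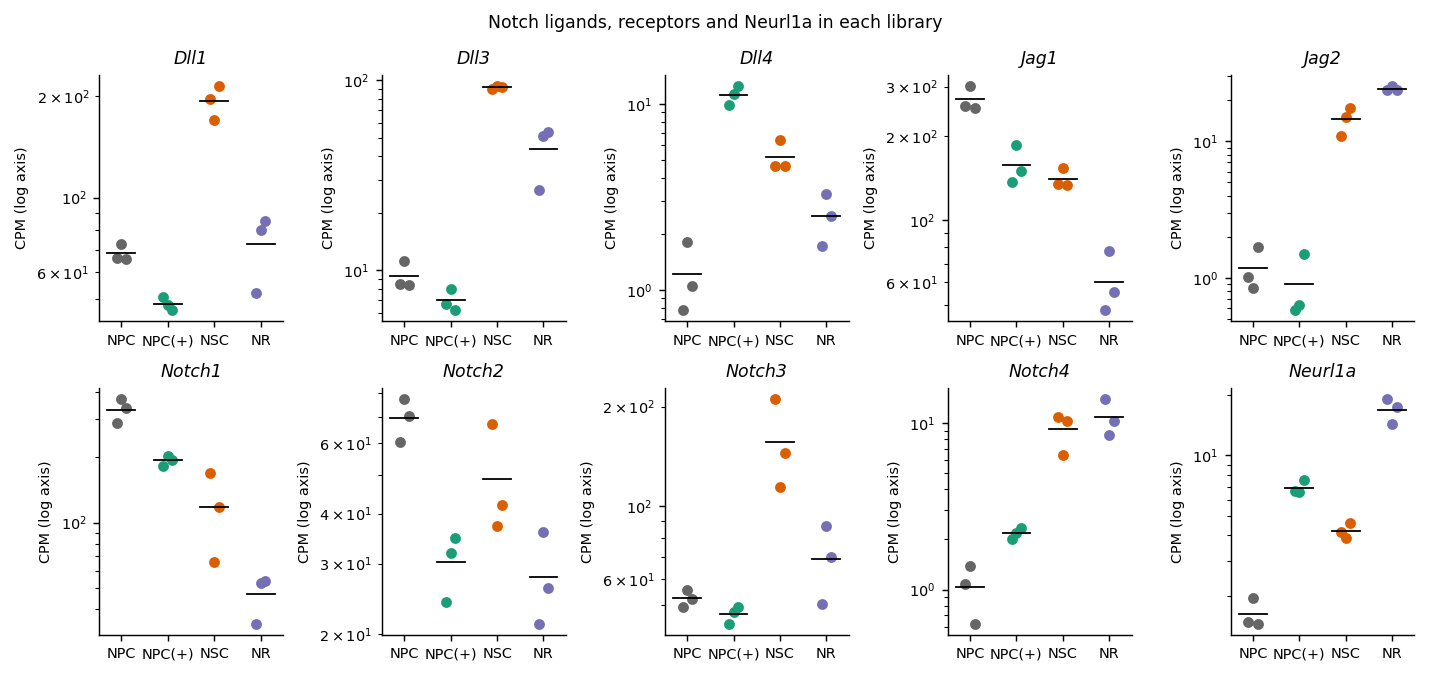
Level of each member in CPM (log axis) in the 12 libraries, with 1 point per library and a line at the group mean (n = 3). Dll4 was highest in NPC(+) with every library between 9.84 and 12.5 CPM, and Notch1 was highest in NPC with every library between 289 and 371 CPM.

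Promoter windows of 4 members are shown because these genes moved in opposite directions between NPC and NPC(+), Dll4 and Neurl1a up and Jag1 and Notch1 down. Each window spans 250 bases before to 50 after the start site given by RefSeq (GRCm38.p6), read 5′ to 3′ on the strand of the gene. Capitals mark letters that match TGGGAA, the core of the RBPJ motif, CAGCTG, an E-box, or CATTGT and CTTTGT, cores of SOX motifs, on either strand. The windows are Dll4 at chr2:119325534-119325833, plus strand, Neurl1a at chr19:47178570-47178869, plus strand, Jag1 at chr2:137116471-137116770, minus strand, and Notch1 at chr2:26503773-26504072, minus strand.
Dll4: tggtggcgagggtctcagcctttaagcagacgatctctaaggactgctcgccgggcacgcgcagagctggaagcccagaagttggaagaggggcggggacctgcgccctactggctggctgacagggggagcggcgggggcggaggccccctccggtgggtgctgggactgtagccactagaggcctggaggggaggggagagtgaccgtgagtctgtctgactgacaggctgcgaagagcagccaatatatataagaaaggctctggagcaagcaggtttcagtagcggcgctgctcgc
Neurl1a: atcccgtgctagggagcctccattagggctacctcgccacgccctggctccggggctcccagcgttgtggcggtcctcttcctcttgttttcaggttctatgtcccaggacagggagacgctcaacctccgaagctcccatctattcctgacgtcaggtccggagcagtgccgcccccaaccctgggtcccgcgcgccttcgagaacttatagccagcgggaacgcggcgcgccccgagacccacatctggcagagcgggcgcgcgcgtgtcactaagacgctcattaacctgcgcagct
Jag1: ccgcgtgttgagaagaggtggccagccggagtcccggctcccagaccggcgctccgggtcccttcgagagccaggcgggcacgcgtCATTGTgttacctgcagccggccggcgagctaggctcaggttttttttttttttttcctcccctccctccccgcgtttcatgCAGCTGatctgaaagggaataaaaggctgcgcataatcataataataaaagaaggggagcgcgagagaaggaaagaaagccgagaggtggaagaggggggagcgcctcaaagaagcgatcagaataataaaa
Notch1: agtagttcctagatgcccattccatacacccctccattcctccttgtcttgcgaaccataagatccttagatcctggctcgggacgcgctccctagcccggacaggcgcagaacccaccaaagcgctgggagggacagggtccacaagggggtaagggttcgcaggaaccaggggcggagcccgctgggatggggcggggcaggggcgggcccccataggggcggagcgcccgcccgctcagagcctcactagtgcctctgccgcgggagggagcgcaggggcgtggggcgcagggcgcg

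The Jag1 window held 1 CATTGT and 1 CAGCTG, and the windows of Dll4, Neurl1a and Notch1 held none of these letters. All 10 members had a window in the RefSeq table, 11 windows in all because Dll1 had 1 more. TGGGAA was in 0 of the 11 windows and in 25.6% of all 32851 windows of this length. CAGCTG was in 3 of 11 (Dll1, Dll3 and Jag1) and in 16.3% of all windows. CATTGT was in 3 of 11 (Dll1, Jag1 and Notch4) and CTTTGT in 1 of 11 (Dll1), beside 12.6% and 18.7% of all windows. No match overlapped another. A match is a description of letters and not of a bound site.

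Among the ligands, Dll4 showed the largest difference between NPC(+) and NPC. Dll4 (ENSMUSG00000027314, GRCm38 chr2:119325784-119335962, plus strand) encodes a Delta-like ligand that activates Notch receptors and is best known from the sprouting of vessels. Its level was 0.776, 1.81 and 1.04 CPM in the NPC replicates, 9.84, 11.3 and 12.5 in NPC(+), 4.61, 6.35 and 4.60 in NSC, with 1.72, 3.29 and 2.50 in NR. Every NPC(+) library lay above every library of the other groups, whereas NR and NPC overlapped. The NPC values rest on 13, 13 and 5 counts and the NPC(+) values on 34, 72 and 75.

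In NPC(+) Dll4 was at 9.83 times its level in NPC, with a log2 fold change of 3.30 (SE 0.35, adjusted p = 6.75e-06) by edgeR's quasi-likelihood test (Benjamini-Hochberg). It was also higher in NPC(+) than in NSC, by a log2 fold change of 1.12 (SE 0.28, adjusted p = 0.00259) in edgeR, and it was lower in NR than in NSC (-1.02, adjusted p = 0.00676, edgeR). The lowest step of the order, NR above NPC, was 1.15 (SE 0.35, adjusted p = 0.00853) on the log2 scale in edgeR and no longer passed without NPC replicate 1 (log2 fold change 0.76, adjusted p = 0.1, edgeR). The 4 groups were thus ordered NPC(+), NSC, NR and NPC. An annotated transcript on the opposite strand of Dll4, Gm14207, shares 214 exonic bases with it and had at most 11 counts in any library, and the strand setting of the counting is not given in the sources used here. In bulk samples a change in the number of cells that express a gene and a change in RNA per cell cannot be told apart.

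Dll1 and Dll3 formed the other end of the Delta-like family, with their peak in NSC. Dll1 (ENSMUSG00000014773, GRCm38 chr17:15367354-15376872, minus strand) encodes the ligand that differentiating cells present to neighbouring progenitors. Its level was 65.9, 73.0 and 65.5 CPM in NPC, 50.7, 48.0 and 46.2 in NPC(+), 197, 170.1 and 215 in NSC, with 52.0, 80.3 and 85.4 in NR. The NSC libraries stood above all others, the NPC(+) libraries below all NPC and NR libraries, and NPC overlapped NR.

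The log2 fold change of Dll1 was -0.50 (SE 0.16, adjusted p = 0.0249) in NPC(+) against NPC and 1.51 (SE 0.15, adjusted p = 7.96e-07) in NSC against NPC, by edgeR's quasi-likelihood test (Benjamini-Hochberg). Between NR and NPC it was 0.10 (95% confidence interval -0.23 to 0.42, adjusted p = 0.578, edgeR) and did not pass. Without NR replicate 1, the library with the lowest Sox1, it was 0.25 with an adjusted p of 0.0372 in edgeR, and without NR replicate 3 it was -0.06 with an adjusted p of 0.743. Dll1 in NR lay under NSC by a log2 fold change of -1.41 (SE 0.15, adjusted p = 9.72e-06) in edgeR.

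Dll3 (ENSMUSG00000003436, GRCm38 chr7:28293553-28302238, minus strand) encodes a divergent Delta-like protein that does not activate receptors on neighbouring cells and is mostly held inside the cell. Its level was 8.47, 11.2 and 8.35 CPM in NPC, 6.66, 8.01 and 6.17 in NPC(+), 89.9, 93.8 and 92.7 in NSC, with 26.4, 50.8 and 53.3 in NR. No 2 groups overlapped, and NR replicate 1 was the lowest of its group.

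Dll3 was 9.91-fold higher in NSC than in NPC, with a difference of 3.31 (SE 0.23, adjusted p = 2.15e-08) on the log2 scale by edgeR's quasi-likelihood test (Benjamini-Hochberg). In NR the log2 fold change against NPC was 2.23 (SE 0.23, adjusted p = 8.66e-07) and against NSC it was -1.07 (SE 0.20, adjusted p = 5.69e-04), both in edgeR. NPC(+) against NPC gave -0.41 with an adjusted p of 0.287 in edgeR and did not pass, although its libraries all lay under those of NPC. With NR replicate 1 left out of the shared fit, this adjusted p was 0.0406 in edgeR at a log2 fold change of -0.42.

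The Jagged ligands moved in opposite directions from NPC to NSC and NR. Jag1 (ENSMUSG00000027276, GRCm38 chr2:137081456-137116644, minus strand) encodes a Notch ligand of the Serrate family that is expressed in neural stem cells and glial progenitors. Its level was 257, 302 and 251 CPM in NPC, 138, 185 and 149.9 in NPC(+), 135, 153 and 134 in NSC, with 47.7, 77.7 and 55.6 in NR. NPC stood above and NR below all other libraries, and NPC(+) overlapped NSC.

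The fall of Jag1 from NPC was a log2 fold change of -0.77 (SE 0.16, adjusted p = 0.00154) in NPC(+), of -0.94 (SE 0.16, adjusted p = 9.22e-05) in NSC and of -2.16 (SE 0.16, adjusted p = 3.66e-08) in NR, by edgeR's quasi-likelihood test (Benjamini-Hochberg). NPC(+) and NSC, neighbours in this order, differed by 0.17 on the log2 scale (95% confidence interval -0.17 to 0.50, adjusted p = 0.361, edgeR), which did not pass. NSC exceeded NR, with a log2 fold change of -1.22 (SE 0.16, adjusted p = 4.29e-05) for NR against NSC in edgeR.

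Jag2 (ENSMUSG00000002799, GRCm38 chr12:112907819-112929776, minus strand) encodes the second Jagged ligand. Its level was 1.01, 0.837 and 1.67 CPM in NPC, 0.579, 0.628 and 1.50 in NPC(+), 10.8, 15.1 and 17.6 in NSC, with 23.6, 25.5 and 23.7 in NR. The NPC and NPC(+) libraries overlapped near the limit of their depth, with 17, 6 and 8 counts in NPC and 2, 4 and 9 in NPC(+), and every NSC and NR library lay above them.

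Jag2 was 22.0-fold higher in NR than in NPC, with a log2 difference of 4.46 (SE 0.29, adjusted p = 7.55e-09), and 13.1-fold higher in NSC, a log2 fold change of 3.71 (SE 0.29, adjusted p = 5.12e-08), by edgeR's quasi-likelihood test (Benjamini-Hochberg). NR exceeded NSC by 0.75 (SE 0.20, adjusted p = 0.00746) on the log2 scale in edgeR. A difference between NPC(+) and NPC was not detectable at this depth (-0.22, 95% confidence interval -1.18 to 0.75, adjusted p = 0.792, edgeR). The order of the groups, NR, NSC and then NPC and NPC(+), was also the order of the summed pluripotency markers, and their part in the level of Jag2 was not tested.

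Of the receptors, Notch1 and Notch2 had their highest mean RNA level in NPC. Notch1 (ENSMUSG00000026923, GRCm38 chr2:26457903-26516663, minus strand) encodes the receptor that maintains neural progenitors in the embryonic brain. Its level was 289, 371 and 336 CPM in NPC, 183, 202 and 195 in NPC(+), 169.8, 65.5 and 119 in NSC, with 34.2, 52.8 and 53.8 in NR. The groups did not overlap in the order NPC, NPC(+), NSC and NR, and NSC was the most spread.

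The log2 fold change of Notch1 was -0.78 (SE 0.26, adjusted p = 0.0290) in NPC(+) against NPC, a 1.71-fold lower level, and -2.81 (SE 0.27, adjusted p = 4.51e-07) in NR against NPC, by edgeR's quasi-likelihood test (Benjamini-Hochberg). NSC lay between, at -1.49 (SE 0.26, adjusted p = 1.37e-04) against NPC in edgeR. NPC(+) exceeded NSC by 0.71 (SE 0.26, adjusted p = 0.0246) on the log2 scale in edgeR, a value of 1.08 without NSC replicate 1 and 0.44 without NSC replicate 2. NSC replicate 2 was also the library with the most Acta2. The last step, NR against NSC, was -1.32 (SE 0.26, adjusted p = 8.75e-04) in edgeR.

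Notch2 (ENSMUSG00000027878, GRCm38 chr3:98013527-98150361, plus strand) encodes a receptor that is also present in glial progenitors. Its level was 60.4, 77.4 and 70.3 CPM in NPC, 24.0, 31.9 and 34.7 in NPC(+), 67.1, 37.3 and 42.1 in NSC, with 21.2, 36.0 and 26.1 in NR. NPC(+) and NR overlapped each other and lay below NPC, and NSC replicate 1 reached the NPC range while the other NSC libraries did not.

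Notch2 was 2.27-fold lower in NPC(+) than in NPC, with a difference on the log2 scale of -1.18 (SE 0.24, adjusted p = 0.00150), and lower in NR by -1.31 (SE 0.23, adjusted p = 1.31e-04), by edgeR's quasi-likelihood test (Benjamini-Hochberg). NPC(+) and NR, the lowest neighbours, differed by 0.13 (adjusted p = 0.640, edgeR), which did not pass. NSC against NPC was -0.50 (SE 0.22, adjusted p = 0.0575) in edgeR, and this call was lost in several alternatives. The adjusted p in edgeR was 0.180 and 0.120 without NPC replicates 2 and 3, 0.0792 and 0.0733 without NPC(+) replicates 2 and 3, and 0.188 and 0.175 without NSC replicates 2 and 3. The adjusted p over all alternatives ran from 0.00371 to 0.188. The call was also lost with both other scalings (adjusted p = 0.0771 and 0.0776, edgeR, with p no longer under 0.05) and when at least 10 counts were required in every library (adjusted p = 0.115, edgeR). Leaving out NSC replicate 1 made the difference -0.80 on the log2 scale. NPC(+) lay under NSC by -0.68 (SE 0.24, adjusted p = 0.0202) in edgeR, with adjusted p of 0.107 without NPC(+) replicate 1 and 0.141 without NSC replicate 1 in edgeR, where the difference was -0.37 on the log2 scale. The log2 fold change of NR against NSC was -0.81 (SE 0.22, adjusted p = 0.00803) in edgeR, and -0.53 without NSC replicate 1.

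Notch3 was the receptor with its peak in NSC. Notch3 (ENSMUSG00000038146, GRCm38 chr17:32120820-32166852, minus strand) encodes a receptor known from neural progenitors and from the pericytes and smooth muscle of vessels. Its level was 49.4, 55.7 and 52.4 CPM in NPC, 44.0, 47.7 and 49.4 in NPC(+), 211, 114 and 145 in NSC, with 50.4, 86.9 and 70.2 in NR. All NSC libraries lay above all others, and NR overlapped NPC. Acta2, the most abundant marker of smooth muscle, was at 143, 880.1 and 141 CPM in the NSC replicates and at 275, 696 and 206 in NR. The library with the most Acta2 had the least Notch3 of the group in NSC and the most in NR. Pdgfrb and Rgs5, markers of pericytes, were lowest in that library in both groups, with Pdgfrb at 26.3, 8.56 and 27.3 CPM in NSC and 27.8, 22.9 and 23.1 in NR. The list's remaining markers were mixed. Kcnj8 was also lowest there in both groups and Myh11 was highest there in both, while Des was highest there in NSC only and Abcc9 in NR only. The part of pericytes and smooth muscle cells in the level of Notch3 was not tested.

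In NSC the log2 fold change of Notch3 against NPC was 1.58 (SE 0.21, adjusted p = 1.21e-05), and NR lay under NSC by -1.18 (SE 0.20, adjusted p = 3.51e-04), by edgeR's quasi-likelihood test (Benjamini-Hochberg). NPC(+) against NPC gave -0.15 (95% confidence interval -0.63 to 0.33, adjusted p = 0.647, edgeR) and did not pass. NR against NPC gave 0.41 with an adjusted p of 0.0920 in edgeR and did not pass because p was 0.0729. It passed without NR replicate 1 (0.55, adjusted p = 0.0187, edgeR), and also without NSC replicate 1 and without NSC replicate 2 (adjusted p = 0.0491 and 0.0595, edgeR). DESeq2's Wald test and both other scalings also called it higher in NR (adjusted p = 0.0471 with DESeq2, 0.00132 to 0.351 over all alternatives). NPC(+) lay under NR by -0.56 (SE 0.21, adjusted p = 0.0315) in edgeR, a call lost without NPC(+) replicate 1, NR replicate 2 or NR replicate 3 (adjusted p = 0.117, 0.130 and 0.0809, edgeR). It was also lost when every library was thinned to the smallest total (-0.47, adjusted p = 0.0776, edgeR), with adjusted p of 1.90e-05 to 0.130 over all alternatives.

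Notch4 (ENSMUSG00000015468, GRCm38 chr17:34564268-34588503, plus strand) encodes a receptor best known from endothelium. Its level was 1.07, 1.40 and 0.626 CPM in NPC, 2.03, 2.20 and 2.33 in NPC(+), 10.8, 6.39 and 10.2 in NSC, with 13.9, 8.48 and 10.3 in NR. NPC, NPC(+) and the pair of NSC and NR formed separate ranges, and NSC overlapped NR. The lower ranges rest on 18, 10 and 3 counts in NPC and 7, 14 and 14 in NPC(+).

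The log2 fold change of Notch4 against NPC was 3.33 (SE 0.32, adjusted p = 3.71e-07) in NR and 3.09 (SE 0.31, adjusted p = 8.63e-07) in NSC, by edgeR's quasi-likelihood test (Benjamini-Hochberg). NPC(+) against NPC gave 1.04 (SE 0.39, adjusted p = 0.0516) in edgeR, a call that did not hold without NPC replicate 1 or 3 or NPC(+) replicate 2 or 3. Those adjusted p were 0.121, 0.124, 0.117 and 0.134 in the same order, in edgeR. NR against NSC was 0.24 (95% confidence interval -0.26 to 0.75, adjusted p = 0.410, edgeR) and did not pass. Of the 10 endothelial markers 7 were tested between NPC(+) and NPC, and Tek, an endothelial receptor, passed as higher (1.19, adjusted p = 0.0872, edgeR) while the others did not. The median log2 fold change of these 7 was 1.03, against 0.00 over all tested genes. Tek had at most 9 counts in any NPC or NPC(+) library, Vwf at most 3 and Cldn5 at most 1, and Cdh5, Tie1 and Erg had none. The median of 1.03 includes Cdh5, Cldn5 and Vwf and so rests in part on genes at the floor. Against NPC, 6 of the 7 were higher in NSC and all 7 in NR, beside 42.7% and 44.2% of all tested genes. Medians were 2.57 and 4.61, beside 0.20 and 0.19. Cdh5, Cldn5 and Vwf had at most 3 counts in any NPC or NPC(+) library and passed the filter on low counts through other libraries. Their direction was thus largely set by that filter, and the fold of Cdh5, with no count in NPC, depends on the prior count. Within NSC and within NR, Notch4 had the order of the summed pluripotency markers over the 3 libraries, and within NR also that of Pecam1. The part of these transcripts in the levels of Dll4 and Notch4 was not tested.

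Neurl1a (ENSMUSG00000006435, GRCm38 chr19:47178820-47259441, plus strand) encodes a Neuralized-family ubiquitin ligase that promotes the endocytosis of Notch ligands. Its level was 1.49, 1.95 and 1.46 CPM in NPC, 6.66, 6.59 and 7.50 in NPC(+), 4.18, 3.90 and 4.60 in NSC, with 19.0, 14.3 and 17.4 in NR. None of the 4 groups overlapped another, in the order NR, NPC(+), NSC and NPC. NR also had the highest sum of pluripotency markers, whose part in the level of Neurl1a was not tested.

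In NPC(+) Neurl1a was at 4.26 times its level in NPC, a log2 fold change of 2.09 (SE 0.22, adjusted p = 6.92e-06) in edgeR that rests on 25, 14 and 7 counts in NPC and 23, 42 and 45 in NPC(+). NR exceeded NPC(+), with a log2 fold change of -1.28 (SE 0.18, adjusted p = 2.11e-05) for NPC(+) against NR, by edgeR's quasi-likelihood test (Benjamini-Hochberg). NPC(+) exceeded NSC by 0.71 (SE 0.18, adjusted p = 0.00347) on the log2 scale in edgeR and did not pass once every library was thinned to the smallest total (adjusted p = 0.126, edgeR, the highest over all alternatives). NSC against NPC was 1.38 (SE 0.21, adjusted p = 3.93e-05) in edgeR. An unclassified transcript annotated on the same strand shares 690 exonic bases with Neurl1a and was not analysed here.

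**Figure D3:**
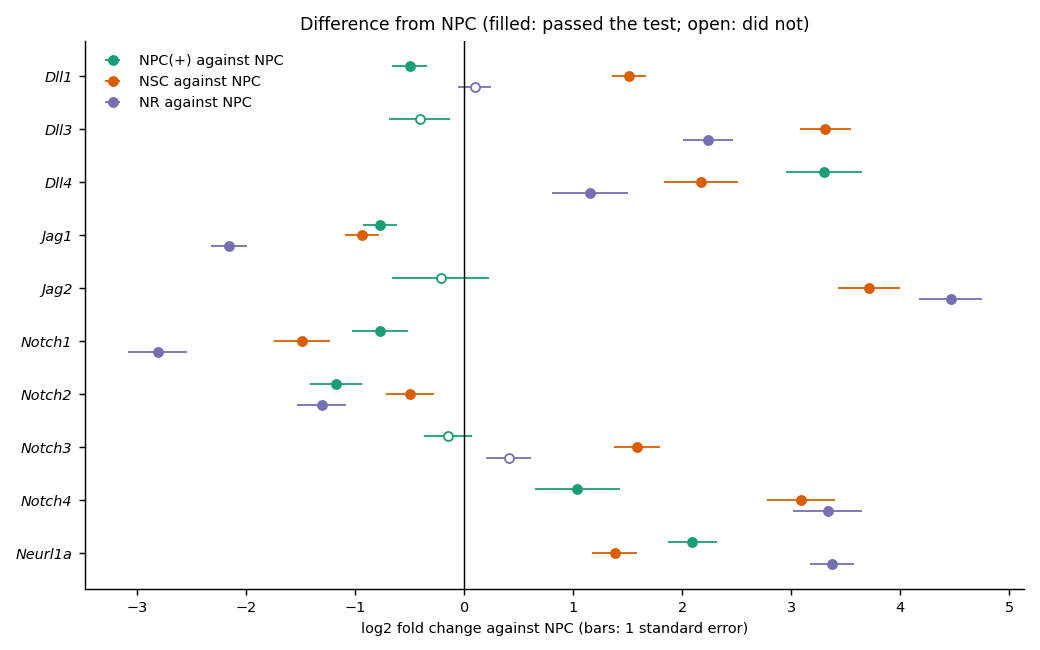
Log2 fold change of each member in NPC(+), NSC and NR against the shared NPC libraries (n = 3 in each group), with bars of 1 standard error, filled where the gene passed the test. Jag1, Notch1 and Notch2 lie left of 0 in all 3 comparisons, and Dll4, Notch4 and Neurl1a lie right of 0.

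Levels of different genes were compared per length, as CPM per kb of merged exons. The 5 ligands together reached 66.3 ± 6.43 CPM per kb in NPC (mean ± SD, n = 3), 44.0 ± 4.43 in NPC(+), 106 ± 3.71 in NSC, with 47.0 ± 11.6 in NR. Jag1 held 69.9% ± 0.478 of that ligand sum in NPC and 61.3% ± 3.36 in NPC(+), against 22.9% ± 2.38 in NSC, with 22.3% ± 3.58 in NR. Jag1 was the most abundant ligand per length in NPC and NPC(+), and Dll1 in NSC and NR.

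Dll1 held 24.4% ± 0.831 of the ligand sum in NPC, 26.2% ± 3.18 in NPC(+), 43.4% ± 3.84 in NSC, with 36.6% ± 1.86 in NR. Dll3 went from 4.92% ± 0.346 of the ligand sum in NPC and 5.54% ± 0.364 in NPC(+) to 30.6% ± 1.17 in NSC, with 31.9% ± 4.09 in NR. Dll4 held 0.465% ± 0.162 in NPC, 6.66% ± 0.896 in NPC(+), 1.28% ± 0.279 in NSC, with 1.38% ± 0.167 in NR. Even in NPC(+), where its level was highest, Dll4 was thus a minor part of the ligand transcripts. Jag2 held at most 0.509% in any NPC or NPC(+) library, and 1.96% ± 0.416 in NSC, with 7.76% ± 2.03 in NR.

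The 4 receptors summed to 36.4 ± 4.10 CPM per kb in NPC, 22.5 ± 1.46 in NPC(+), 33.3 ± 11.4 in NSC, with 15.8 ± 3.27 in NR. Notch1 held 64.1% ± 0.810 of the receptor sum in NPC and 60.5% ± 1.59 in NPC(+), against 24.2% ± 3.62 in NSC, with 20.8% ± 2.18 in NR. Notch3 held 17.9% ± 0.994 in NPC, 25.9% ± 0.502 in NPC(+), 58.5% ± 2.47 in NSC, with 53.8% ± 3.24 in NR. The leading receptor per length was therefore Notch1 in NPC and NPC(+) and Notch3 in NSC and NR. Notch2 held 17.7% ± 0.213 in NPC and 12.4% ± 1.56 in NPC(+), and Notch4 held 0.352% ± 0.121 in NPC and 9.17% ± 4.34 in NR. With the longest transcript as the length, Notch1 held 72.4% in NPC and 31.9% in NSC and Notch3 51.9% in NSC, and the leading ligand and receptor of each group were the same.

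**Figure D4:**
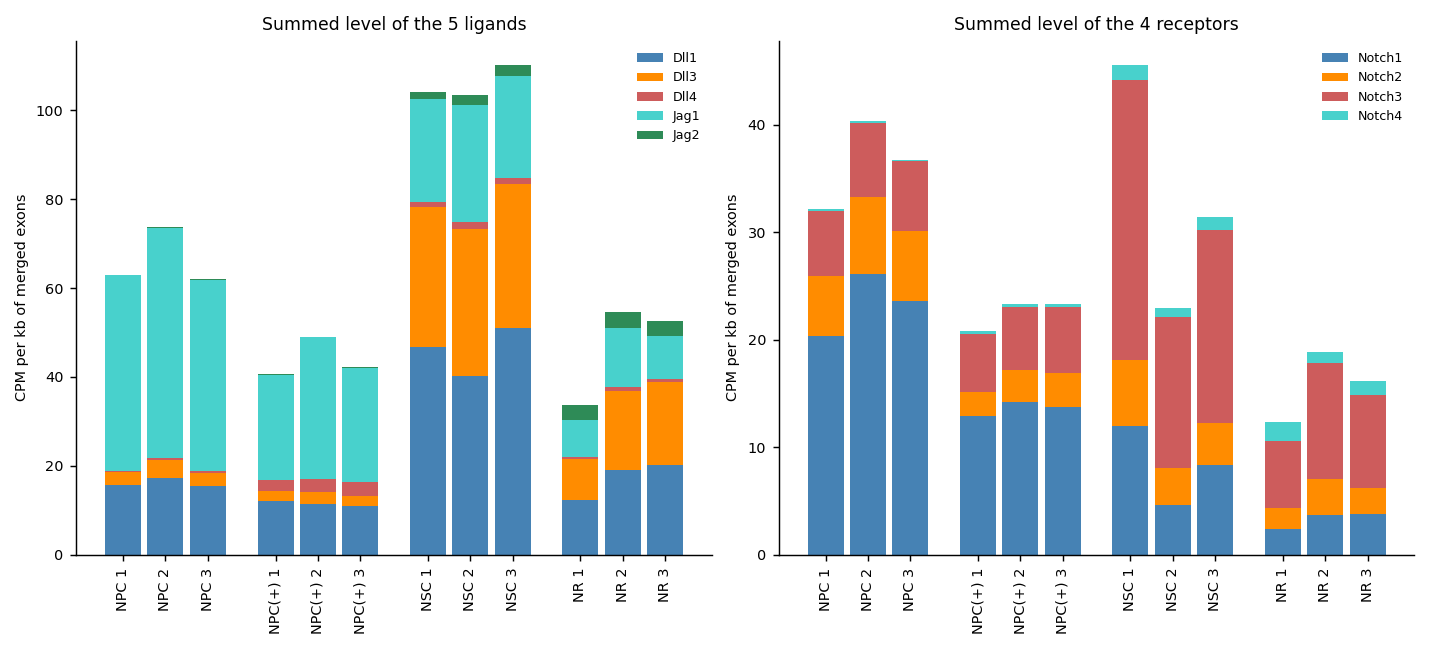
Stacked level of the 5 ligands (left) and the 4 receptors (right) in each library, in CPM per kb of merged exons, with 1 bar per library. NPC and NPC(+) bars are mostly Jag1 and Notch1, and NSC and NR bars are mostly Dll1, Dll3 and Notch3.

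Over the 12 libraries, the members fell into patterns that the correlation of their log2 CPM describes, since the libraries of a group share their cells and depth. Notch1 and Jag1 varied together (r = 0.92), as did Dll1 and Notch3 (r = 0.95) and Jag2 and Dll3 (r = 0.89). Jag1 and Neurl1a ran opposite (r = -0.93). Dll4 was not close to any other member, with r from -0.45 to Notch2 up to 0.36 to Neurl1a.

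The tested genes most like each member over the 12 libraries were found by the same measure. For the ligands they were Atxn7l2 (r = 0.970) and Tmem132e (r = 0.964) for Dll4, Fbxo45 (r = 0.991) and Boc (r = 0.991) for Dll1 and Nkx6-1 (r = 0.995) and Greb1 (r = 0.993) for Dll3. Jag1 was most like Coro1c (r = 0.989) and Zfp661 (r = 0.988), and Jag2 most like Bst2 (r = 0.995) and Stxbp2 (r = 0.994). Among the receptors, Notch1 was most like Mageh1 (r = 0.985) and Pogk (r = 0.985), Notch2 like Lrig1 (r = 0.936) and Dync2h1 (r = 0.934), Notch3 like Hif1an (r = 0.989) and Maml3 (r = 0.977) and Notch4 like Grb10 (r = 0.991) and Ap3b2 (r = 0.988). Neurl1a was most like Fam83f (r = 0.984) and Rps6ka1 (r = 0.977). An r over 0.9 was common where a gene followed the main separation of the groups, with 2287 tested genes for Jag2 against 71 for Dll4 and 27 for Notch2.

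The other genes of the pathway were taken from 7 lists with 51 genes, of which 50 were tested. In NPC(+) against NPC, 5 of these 50 were higher and 19 lower, with a median log2 fold change of -0.26 over the 46 genes above the floor, beside 0.00 over all tested genes. Over all tested genes 21.6% were higher and 22.7% lower in that comparison. In NSC against NPC 21 were higher and 19 lower, beside 42.7% and 32.5% of all tested genes, and in NR against NPC 19 were higher and 24 lower, beside 44.2% and 32.8%. The share of higher pathway genes was thus under the background in NPC(+) and near it in NSC and NR, and the share of lower ones was above it in NPC(+) and NR and near it in NSC. In NPC(+) against NPC, the calls of Adam17 and Aph1c were also lost, and Dlk1, Dtx4, Rbpj and Spen passed, in at least 1 alternative.

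Around the ligands, 1 of 6 tested genes of ligand endocytosis rose in NPC(+) and 3 fell. Mib2, a Mind bomb ligase that ubiquitinates ligands, had 97.8, 117 and 120.2 CPM in NPC and 32.4, 36.3 and 40.9 in NPC(+), a log2 fold change of -1.60 (SE 0.13, adjusted p = 5.60e-07) by edgeR's quasi-likelihood test (Benjamini-Hochberg). Neurl2, another Neuralized-family gene, also rose (1.36, adjusted p = 0.0121, edgeR). This rests on few reads, the largest count of Neurl2 being 11 among the NPC libraries and 13 among those of NPC(+). Neurl1b, a more abundant gene of that family, had a mean of 24.6 CPM in both groups and did not pass (-0.003 on the log2 scale). Against NPC, Neurl1b was lower in NSC and NR (log2 fold changes of -4.90 and -5.11), where Neurl1a was higher. Epn1, an adaptor of clathrin-coated pits, fell in NPC(+) (-0.63, adjusted p = 0.0219, edgeR). The call of Neurl2 was lost without NPC(+) replicate 2 (adjusted p = 0.102, edgeR) and that of Epn1 without NPC(+) replicate 1 (adjusted p = 0.101, edgeR). The third gene that fell, Mib1, another Mind bomb ligase (-0.38, adjusted p = 0.0818, edgeR), lost its call with DESeq2 (adjusted p = 0.102), with both other scalings, and without any 1 of the NPC or NPC(+) libraries, NSC replicate 3 or NR replicate 3 (adjusted p from 0.111 to 0.279, edgeR). Of 6 noncanonical ligands, Dlk2 passed (1.50, adjusted p = 0.0939, edgeR), with at most 19 counts in any library. Its call was lost without any 1 of the NPC replicates 1, 2 and 3 (adjusted p = 0.138, 0.154 and 0.212, edgeR), without NPC(+) replicate 2 or 3 (0.156 and 0.389), and without NSC replicate 3 or NR replicate 3 (0.107 and 0.104). The difference of Dlk2 was 1.01 on the log2 scale without NPC(+) replicate 3.

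Around the receptors, 3 of 5 genes of receptor glycosylation fell in NPC(+) and none rose. Poglut1, which adds glucose to the receptors' repeats, had 232, 198 and 203 CPM in NPC and 103, 93.7 and 94.2 in NPC(+), a log2 fold change of -1.12 (SE 0.12, adjusted p = 6.79e-06) by edgeR's quasi-likelihood test (Benjamini-Hochberg). Pofut1, which adds fucose, and Mfng, a fringe enzyme that extends it, had log2 fold changes of -0.62 (adjusted p = 0.0130) and -0.54 (adjusted p = 0.0708) in edgeR. The call of Mfng was lost without NPC replicate 1, 2 or 3 (adjusted p = 0.106, 0.105 and 0.174, edgeR), without NPC(+) replicate 2, where the log2 difference was -0.36 (adjusted p = 0.288, edgeR), without NPC(+) replicate 3 (adjusted p = 0.175, edgeR), and in the upper-quartile and thinned alternatives. Of 10 genes of receptor cleavage 4 fell and 1 rose. Aph1a, a subunit of gamma-secretase, had 28.5, 30.1 and 30.1 CPM in NPC and 68.0, 57.0 and 55.5 in NPC(+), a log2 fold change of 1.02 (SE 0.17, adjusted p = 3.17e-04) in edgeR. Ncstn, another subunit, fell with a log2 fold change of -0.27 (SE 0.08, adjusted p = 0.0143) in edgeR.

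Genes that direct receptor trafficking or oppose the pathway were mixed, with 2 of 10 higher in NPC(+) and 5 lower. Dtx1, a Deltex ligase, had 9.13, 12.0 and 11.1 CPM in NPC and 1.16, 0.942 and 1.00 in NPC(+), a log2 fold change of -3.38 (SE 0.23, adjusted p = 1.47e-07) by edgeR's quasi-likelihood test (Benjamini-Hochberg). Dtx2, its paralogue, rose (1.15, adjusted p = 1.49e-05, edgeR), and Nedd4, a ligase acting on receptors, fell (-0.53, adjusted p = 1.79e-04, edgeR). Numb, an inhibitor of Notch that is inherited unequally at divisions, had 26.0, 25.7 and 29.2 CPM in NPC and 19.1, 17.0 and 15.2 in NPC(+), 56.2, 65.2 and 64.0 in NSC, with 53.3, 58.4 and 48.6 in NR. It was lower in NPC(+) than in NPC (-0.66, adjusted p = 8.25e-04, edgeR) and higher in NSC (1.20, adjusted p = 3.30e-07, edgeR). Its relative Numbl did not pass in NPC(+) (-0.14, adjusted p = 0.577, edgeR, but -0.34 with an adjusted p of 0.0872 without NPC replicate 1) and was higher in NSC (2.38, adjusted p = 7.64e-09, edgeR).

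In the nucleus, 3 of 7 genes of the RBPJ complex and its cofactors fell in NPC(+) and none rose. These were Maml2 and Maml1, coactivators of the intracellular domain, and Kdm5a, a histone demethylase that binds RBPJ, with log2 fold changes of -0.48, -0.81 and -0.37 (adjusted p = 0.00125, 0.00358 and 0.00712, edgeR). Of 6 target genes only Hey1 passed in NPC(+), with 79.5, 70.7 and 70.3 CPM in NPC and 36.2, 31.6 and 34.5 in NPC(+), a log2 fold change of -1.12 (SE 0.12, adjusted p = 5.27e-06) by edgeR's quasi-likelihood test (Benjamini-Hochberg). Hes1 and Hes5, the targets best known from neural progenitors and named, like Nrarp, after their values were seen, had log2 fold changes of -0.13 (adjusted p = 0.216) and 0.47 (adjusted p = 0.242) in edgeR and did not pass. Hes5 did pass as higher in NPC(+) without NR replicate 1, when only the libraries compared were fitted, and with no filter (adjusted p = 0.0948, 3.16e-05 and 0.00134, edgeR). Nrarp, a feedback inhibitor, was at 3.04, 5.86 and 2.92 CPM in NPC and 2.32, 1.41 and 2.00 in NPC(+), a difference of -1.07 on the log2 scale that did not pass (adjusted p = 0.111, edgeR). It passed as lower without NR replicate 1 or 3, when only the libraries compared were fitted, and with no filter (adjusted p = 0.0267, 0.0867, 0.0161 and 0.00346, edgeR), and also with DESeq2 (adjusted p = 0.0506). In NSC against NPC 4 of the 6 targets were higher and 2 lower, beside 42.7% and 32.5% of all tested genes. In NR against NPC 3 were higher and 3 lower, beside 44.2% and 32.8%. Heyl, among the higher ones in both, had at most 2 counts in an NPC library and none in NPC(+). It passed the filter on low counts through NSC and NR, so its direction was largely set by that filter.

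**Figure D5:**
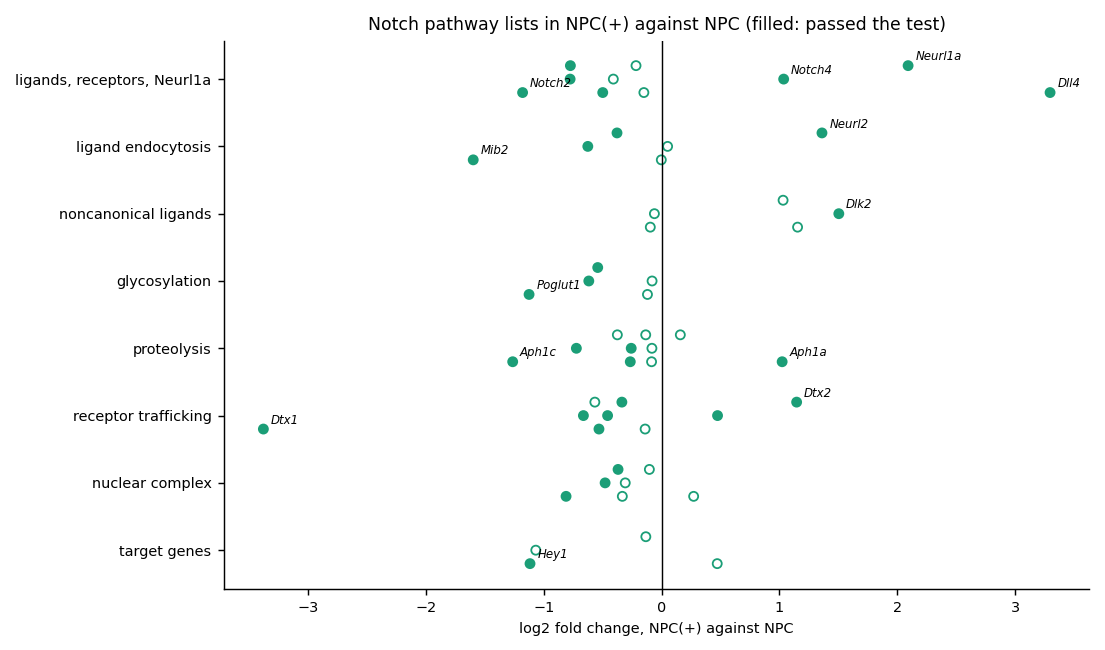
Log2 fold change in NPC(+) against NPC for the members and the 7 pathway lists (n = 3 in each group), with 1 point per tested gene, filled where the gene passed, and names at passing changes near or over 1. Genes at or under the floor of 3 counts in both groups are left out, and all filled points other than those of Dll4, Notch4, Neurl1a, Neurl2, Dlk2, Aph1a, Dtx2 and Fbxw7 lie left of 0.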

How the data were processed

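Per the labels, RNA was isolated with the PicoPure kit, amplified with SMART-Seq v4 and made into libraries with the MicroPlex kit. The authors deposited reads counted per Ensembl gene as whole-number counts. The submitters' processing notes name STAR 2.6, RSEM 1.1.14 and mm10 without giving their roles, and the annotation and the strand setting are not given in the sources used here. The members and gene lists were chosen with earlier results of these data known.

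Symbols, positions and exon lengths came from GENCODE for GRCm38, which gave a symbol to 45143 of 45706 identifiers, and the 563 others held 0.124% of the counts. Counts of all 12 libraries entered 1 fit in edgeR 4.0.16 (limma 3.58.1, R 4.3.3) with TMM scaling, filterByExpr by group, glmQLFit and glmQLFTest with no block and a prior count of 0.125. Benjamini-Hochberg adjustment ran over the 17003 tested genes, and edgeR bounds each p by that of a Poisson test. A gene passed at an adjusted p under 0.1 and a p under 0.05. Standard errors are the log2 fold change over the square root of F. Correlations used log2 CPM with a prior count of 2. Python 3.11.15, pandas 2.3.3, numpy 2.4.6 and matplotlib 3.10.9 made the tables and plots, and the test was checked on simulated data.

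Genes named are the members, Sox1, up to 3 genes of each pathway list with the smallest adjusted p in NPC(+) against NPC, Numb and Numbl, the most abundant gene of each marker list, and for each member the 2 genes most like it. Of these, 2 genes are not reported here, nor is 1 of the marker lists. Any other gene was named after its values were seen. Same-numbered NSC and NR replicates deviated together (correlations 0.229, 0.49 and 0.296), so these groups were also fitted as paired, whereas no other pair of groups did. Alternatives were DESeq2 1.42.0, other scalings, filters, a replicate block, fits of only the groups compared, thinning to 3407066 counts and the omission of each library. Fits of NSC and NR alone with the block, and the alternatives for the pathway lists and Sox1, were chosen after seeing the data.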

Additional observations from a re-analysis of the deposited data

How the results depend on the processing

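Depth limits Dll4, Jag2, Notch4 and Neurl1a in NPC and NPC(+), and these 4 genes were not tested when at least 10 counts were required in every library. The number of members that passed, of the 6 then tested, was 4 in NPC(+) against NPC, where it had been 7 of 10. It was 5 in NSC against NPC (10 before), 5 in NR against NPC (8 before), 5 in NPC(+) against NSC (9 before) and 5 in NPC(+) against NR (9 before). Under this filter Notch2 also lost its call in NSC against NPC (adjusted p = 0.115, edgeR) and Notch3 gained one in NR against NPC (adjusted p = 0.0340, edgeR). Leaving out each library in turn gave 6 to 8 passing members in NPC(+) against NPC, 9 to 10 in NSC against NPC, 7 to 10 in NR against NPC, 9 in NR against NSC, 8 to 9 in NPC(+) against NSC and 8 to 9 in NPC(+) against NR. With the replicate block the counts were 7, 10, 8, 9, 9 and 9 in the same order. In NPC(+) against NPC the replicate block ended the call of Dlk2 (1.44, adjusted p = 0.112, edgeR). With it Nrarp and Spen passed as lower (-1.15 and -0.32, adjusted p = 0.0869 and 0.0665, edgeR) and Dlk1 as higher (1.41, adjusted p = 0.0984, edgeR), so that 26 of the pathway genes passed. Fitting NSC and NR alone with the block, as paired groups, left 9, and the paired fit changed no call of a member there. For the pathway lists the number that passed in NPC(+) against NPC was 24 and ran from 19 to 28 over the omissions. The median shift of all genes under other scalings was at most 0.09 on the log2 scale. Of 1305 alternative values of the members' differences, 1269 kept direction and call, 23 lost the call, 10 gained it, 3 changed sign while under the threshold, and none of those that passed changed sign.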
